A study of Mus musculus with 4 samples.

Results

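The genes described here are 10 genes of the oxidative stress response that the transcription factor NRF2 drives: Nfe2l2, which encodes NRF2 itself, and its target genes Nqo1, Gclc, Gclm, Srxn1, Txnrd1, Hmox1, Osgin1, Cbr3 and Akr1b8. They were chosen by symbol, as the probe sets annotated with exactly 1 symbol equal to one of these names, and 18 probe sets of the 45101 on the array named them. The 10 genes stand among 18194 named genes. Each gene took its brightest probe set by the mean of 4 arrays, and the other probe sets are given beside it. The 4 groups were mice given diethylnitrosamine (DEN) and then a diet with 0.2% cholic acid (CA), mice given DEN and then control diet, mice on the CA diet without DEN, and mice on control diet without DEN. DEN is a liver carcinogen given to mice to start tumours, and CA is a primary bile acid. All mice were 10 months old, and each group was measured on 1 array, with a pool of liver RNA of 3 to 5 mice. Strain, sex, DEN dose and the share of tumour tissue in a pool are unknown (not given in the labels). There was therefore no replicate and no test. Every difference below sets 1 pool against 1 other, and 4 arrays are the limit of its precision.

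NRF2 is a leucine zipper transcription factor that the adaptor KEAP1 keeps low by marking it for destruction. Oxidants and electrophiles modify KEAP1, NRF2 then accumulates, pairs with small MAF proteins and binds antioxidant response elements in front of genes for glutathione synthesis, thioredoxin repair and carbonyl reduction. In liver this programme protects hepatocytes from reactive compounds, and it is often active in liver tumours. NRF2 is set mostly by the stability of the protein, so the RNA of Nfe2l2 is not a measure of its activity.

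The sequences just before the start sites are shown for 3 of these genes. They hold letters there which NRF2 with a small MAF protein can bind. The sequence of Cbr3, the gene that differed most between pools, is also shown and held no match to the motifs searched. All are 150 bases of mouse RefSeq sequence, build GRCm38.p6, upstream of the start site in the direction of the gene. Capitals mark matches on either strand to TGANTCAGC, to TGACNNNGC, the core of an antioxidant response element, or to TGANTCA, the element bound by AP-1 factors, which is wholly contained in TGANTCAGC. The motifs were chosen after the values were known.
Srxn1 (chr2:152105374-152105523, plus strand): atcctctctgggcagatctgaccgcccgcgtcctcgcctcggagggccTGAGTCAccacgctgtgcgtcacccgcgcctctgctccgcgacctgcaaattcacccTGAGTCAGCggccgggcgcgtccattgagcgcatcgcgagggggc
Osgin1 (chr8:119436997-119437146, plus strand): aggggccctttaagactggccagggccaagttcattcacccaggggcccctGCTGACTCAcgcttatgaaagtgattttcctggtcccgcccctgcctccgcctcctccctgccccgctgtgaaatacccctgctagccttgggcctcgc
Gclm (chr3:122245407-122245556, plus strand): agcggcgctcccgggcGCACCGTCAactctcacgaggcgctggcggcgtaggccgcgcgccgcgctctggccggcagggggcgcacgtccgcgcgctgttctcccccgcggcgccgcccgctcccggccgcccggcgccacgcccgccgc
Cbr3 (chr16:93683069-93683218, plus strand): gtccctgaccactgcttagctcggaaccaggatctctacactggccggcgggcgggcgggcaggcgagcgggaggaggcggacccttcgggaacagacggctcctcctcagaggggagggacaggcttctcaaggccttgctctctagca

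The search covered the whole windows of 250 bases before and 50 bases after a start site, which were at hand for 8 of the 10 genes in 10 windows, 3 of them of Txnrd1. TGANTCAGC was found in the windows of Srxn1 and Osgin1, both times as TGAGTCAGC, at positions -45 to -37 from the start site in Srxn1 and, on the opposite strand, at -99 to -91 in Osgin1. Of 32851 windows of all genes, 1.19% held this motif. TGACNNNGC was found in 4 of the 10 windows, those of Nfe2l2, Srxn1 and Gclm and 1 of Txnrd1, against 12.4% of all windows. TGANTCA was found in Srxn1, at 2 places, and in Osgin1, against 7.81% of all windows. The windows of Nqo1, Cbr3 and Akr1b8 held none of these letters. A match describes the sequence and is not a measured binding site. A window without a match does not show that the gene lacks such an element, since sequence outside the windows was not searched.

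The main pattern was shared by 8 of the 10 genes. Nqo1, Gclc, Srxn1, Txnrd1, Hmox1, Osgin1, Cbr3 and Akr1b8 were highest after DEN with the CA diet, next after DEN with control diet, then on the CA diet without DEN, and lowest on control diet without DEN. Among the 11651 genes called expressed, those whose mean log2 level reached 4.855 (the middle value of all probe sets), 11.4% had this order. All 10 genes passed that limit. The order was noticed in these values, and Akr1b8 and Nqo1 hardly differed between the diets without DEN. Gclc and Txnrd1 also differed little there, by 0.21 and 0.12 on the log2 scale. After DEN, Osgin1 and Txnrd1 differed little between the diets, by 0.22 and 0.17. Nfe2l2 and Gclm did not follow the order.

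**Figure D1:**
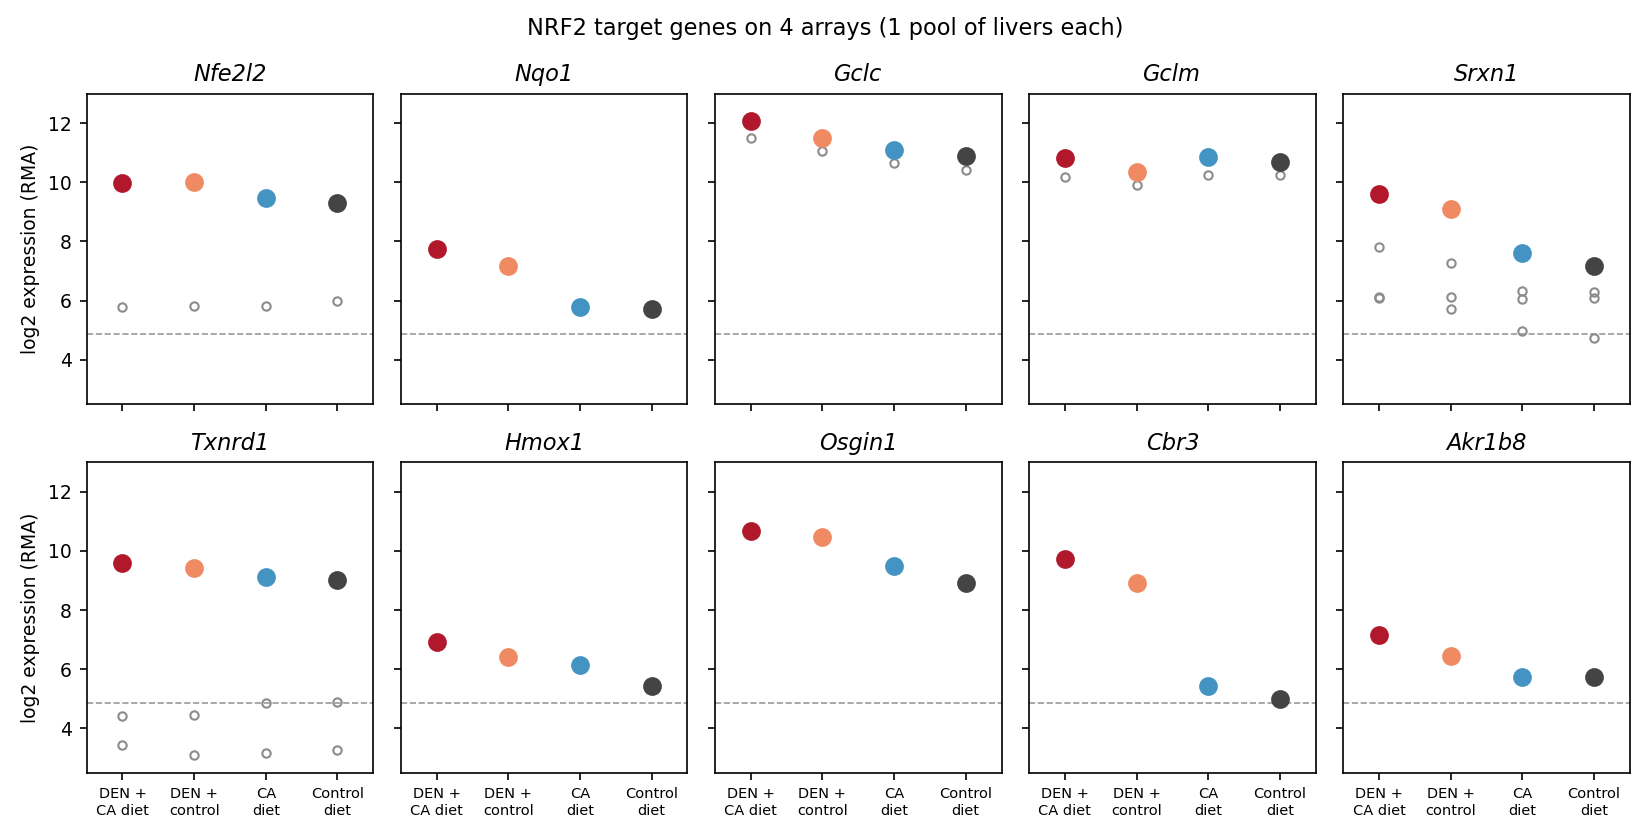
Log2 expression (vertical axis) of the 10 genes on the 4 arrays (horizontal axis), 1 pool of livers each. Filled circles are the probe set used, open grey circles the other probe sets of the gene, and the dashed line is the expression limit of 4.855. Cbr3 and Srxn1 stand far apart between the pools with and without DEN, and Gclm does not.

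Among the reductases of carbonyls and quinones was Cbr3, the gene with the widest span of the 10. Cbr3, a carbonyl reductase, had a log2 level of 9.73 in the DEN with CA pool and 8.92 in the DEN with control diet pool, against 5.44 in the CA pool and 4.98 in the control diet pool. Both DEN pools lay far above both pools without DEN, whose levels were close to the expression limit. Cbr3 was 15.4-fold higher after DEN on control diet and 19.5-fold higher after DEN on the CA diet. It stood at rank 27 and rank 26 of 11651 expressed genes in these comparisons. Nqo1, the quinone reductase used as a standard readout of NRF2, had 7.74 in the DEN with CA pool and 7.16 in the DEN with control diet pool, against 5.78 in the CA pool and 5.71 in the control diet pool. It was 2.73-fold higher after DEN on control diet and 3.89-fold higher after DEN on the CA diet, while the CA diet alone left it at 1.05-fold. Akr1b8, an aldo-keto reductase, had 7.17 in the DEN with CA pool and 6.46 in the DEN with control diet pool, against 5.75 in the CA pool and 5.73 in the control diet pool. It was 1.66-fold higher after DEN on control diet and 2.67-fold higher after DEN on the CA diet. Close relatives of Akr1b8 exist in the mouse, and this array may not tell them apart.

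The glutathione synthesis genes differed from each other. Gclc, the catalytic subunit of glutamate-cysteine ligase, the enzyme of the first step, had 12.06 in the DEN with CA pool and 11.50 in the DEN with control diet pool, against 11.10 in the CA pool and 10.89 in the control diet pool. Its other probe set read 11.48 in the DEN with CA pool and 11.06 in the DEN with control diet pool, against 10.65 in the CA pool and 10.41 in the control diet pool. Both gave the same order, and Gclc was 2.25-fold higher with both treatments than with neither. Gclm, the modifier subunit of the same enzyme, had 10.82 in the DEN with CA pool and 10.35 in the DEN with control diet pool, against 10.86 in the CA pool and 10.70 in the control diet pool. Its second probe set read 10.19 in the DEN with CA pool and 9.91 in the DEN with control diet pool, against 10.24 in both pools without DEN. Gclm was lowest after DEN on control diet in both probe sets, by -0.35 and -0.33 against the control diet pool, and its CA diet level after DEN lay 1.39-fold above that DEN pool. Gclm thus stood apart from Gclc, its partner, in the DEN comparison on control diet, where Gclc was 1.53-fold higher.

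The thioredoxin and peroxiredoxin branch was represented by a pair of genes. Srxn1, sulfiredoxin, which restores overoxidised peroxiredoxins, had 9.60 in the DEN with CA pool and 9.10 in the DEN with control diet pool, against 7.60 in the CA pool and 7.17 in the control diet pool. It was 3.81-fold higher after DEN on control diet and 4.02-fold higher after DEN on the CA diet. Of its 4 probe sets, 1 hardly varied, with levels between 6.05 and 6.11 on the 4 arrays, and the others differed after DEN on control diet by 1.93, 0.99 and 0.97 on the log2 scale. Txnrd1, the cytosolic thioredoxin reductase, had 9.59 in the DEN with CA pool and 9.42 in the DEN with control diet pool, against 9.13 in the CA pool and 9.01 in the control diet pool. The span of Txnrd1 was 1.5-fold. Its other probe sets lay around or under the expression limit, and the brighter of them read 4.42 in the DEN with CA pool and 4.44 in the DEN with control diet pool, against 4.85 in the CA pool and 4.88 in the control diet pool, the opposite direction.

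Hmox1 and Osgin1 had the largest differences of the 10 genes on the CA diet without DEN. Hmox1, haem oxygenase, which degrades haem and which the repressor BACH1 holds down, had 6.91 in the DEN with CA pool and 6.40 in the DEN with control diet pool, against 6.13 in the CA pool and 5.42 in the control diet pool. It was 1.64-fold higher on the CA diet alone, at rank 184 of 11651, and 2.80-fold higher with both treatments. Osgin1, an oxidative stress induced growth inhibitor, had 10.68 in the DEN with CA pool and 10.46 in the DEN with control diet pool, against 9.48 in the CA pool and 8.93 in the control diet pool. It was 1.47-fold higher on the CA diet alone and 2.90-fold higher after DEN on control diet, but only 1.16-fold higher on the CA diet after DEN. Nfe2l2 had 9.96 in the DEN with CA pool and 10.00 in the DEN with control diet pool, against 9.48 in the CA pool and 9.30 in the control diet pool. Both DEN pools were above both others, by 1.62-fold on control diet and 1.40-fold on the CA diet. The second probe set of Nfe2l2 was dimmer and did not show this (5.78 in the DEN with CA pool and 5.83 in the DEN with control diet pool, against 5.81 in the CA pool and 5.97 in the control diet pool).

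The DEN comparison on control diet concerns the carcinogen without the bile acid load. Cbr3, Srxn1, Osgin1 and Nqo1 were at least 2-fold higher, which is 4 of 10 genes, against 5.12% of expressed genes. None was lower by that much, against 0.901% of expressed genes. The median log2 difference of the 10 genes was 0.86, against 0.035 over all expressed genes. At a lower limit of 1.5-fold 8 of 10 were higher, all but Txnrd1 and Gclm, against 11.1% of expressed genes. Hmox1 lay just under the limit at 0.98, and 9 of 10 were above 0, all but Gclm, against 54.5% of expressed genes. Over the 18 hybridization control probe sets, which report the handling of the array rather than the liver, the largest difference in this comparison was 0.203, and 9 of 10 genes were higher by more than that, against 31.3% of expressed genes.

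On the CA diet the DEN comparison gave 5 of 10 genes at least 2-fold higher, Cbr3, Srxn1, Nqo1, Akr1b8 and Osgin1, against 4.75% of expressed genes, and none at least 2-fold lower, against 1.75%. The median was 1.08, against 0.004 over expressed genes. Gclm stood at -0.04. With both treatments against neither, 7 of 10 genes were at least 2-fold higher, against 5.97% of expressed genes, and none at least 2-fold lower, against 2.2%. The median was 1.46, against 0.012. The 3 that were not are Nfe2l2 (0.66), Txnrd1 (0.58) and Gclm (0.12). This comparison shares its arrays with the others and is given as its own values.

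**Figure D2:**
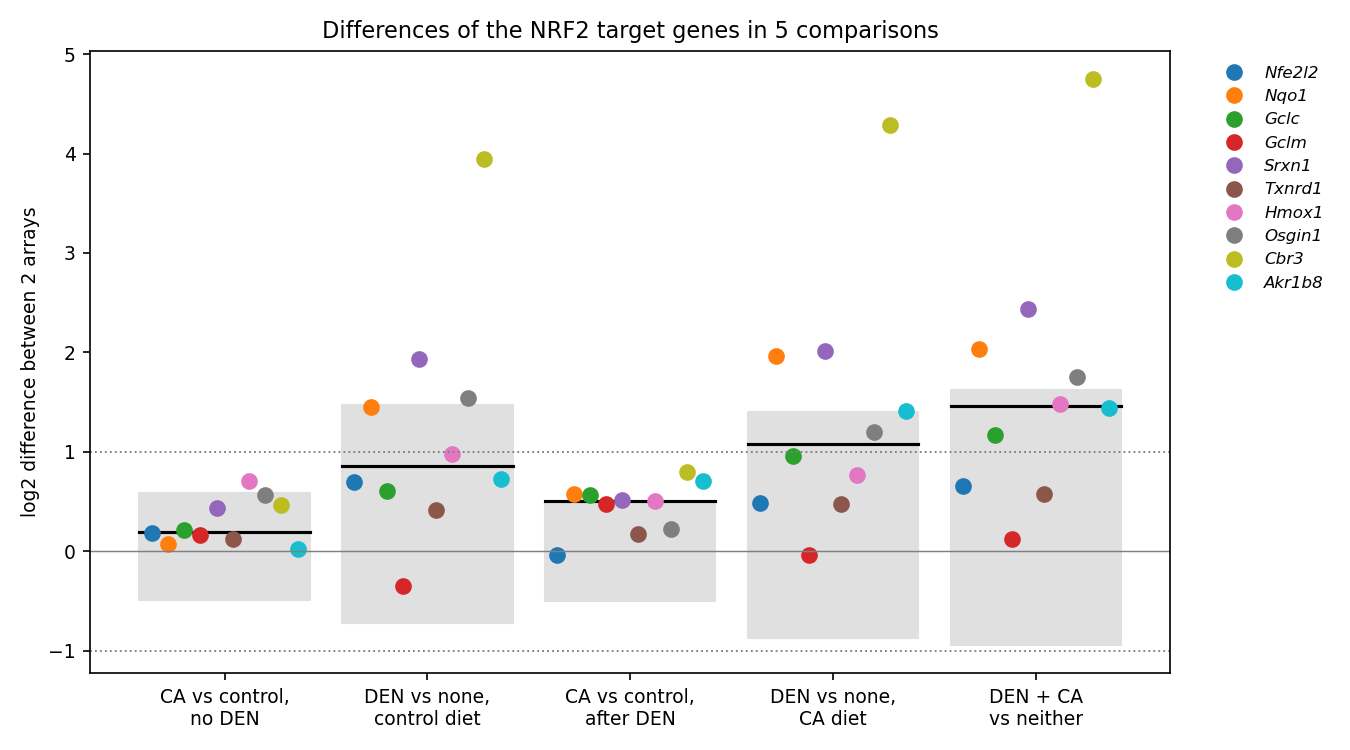
Log2 differences of the 10 genes (coloured points, vertical axis) in the 5 comparisons of 2 arrays (horizontal axis). Black lines are medians over the 10 genes, grey boxes hold the central 95% of expressed genes, and dotted lines mark 2-fold. Cbr3 lies far above the grey box in the 3 comparisons that set DEN against no DEN, and Gclm lies within it in all 5.

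The CA diet against control diet asks what a bile acid load goes with. No gene of the 10 reached 2-fold in either setting, where without DEN 0.661% of expressed genes were higher and 0.592% lower by that much, and after DEN 0.266% were higher and 0.472% lower. At 1.5-fold 1 of 10 was higher without DEN, Hmox1, against 2.49% of expressed genes, and 2 of 10 after DEN, Cbr3 and Akr1b8, against 1.34%. Smaller differences ran one way. Without DEN all 10 genes were above 0, against 52.9% of expressed genes, with a median of 0.20 against 0.015, but Akr1b8 (0.02) and Nqo1 (0.07) hardly were. After DEN 9 of 10 were above 0, against 44.7% of expressed genes, with a median of 0.50 against -0.022. Only Nfe2l2 was not, at -0.04.

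The diet comparisons were also read by rank. The top 5% of expressed genes by difference (583 genes), a limit chosen after the values were seen, held 3 of the 10 genes without DEN (Hmox1, Osgin1 and Cbr3), and Srxn1 stood at rank 595, just outside. After DEN the top 5% held 7 of the 10, Cbr3 (rank 81), Akr1b8 (106), Nqo1 (162), Gclc (178), Srxn1 (241), Hmox1 (249) and Gclm (303). These 7 were also higher by more than the largest hybridization control difference in that comparison, 0.267, which 8.44% of expressed genes were. Without DEN that limit was 0.305, and 4 of 10 genes passed it, against 10.5% of expressed genes. These diet comparisons share no array. All remained small, the largest being 1.74-fold for Cbr3 after DEN.

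**Figure D3:**
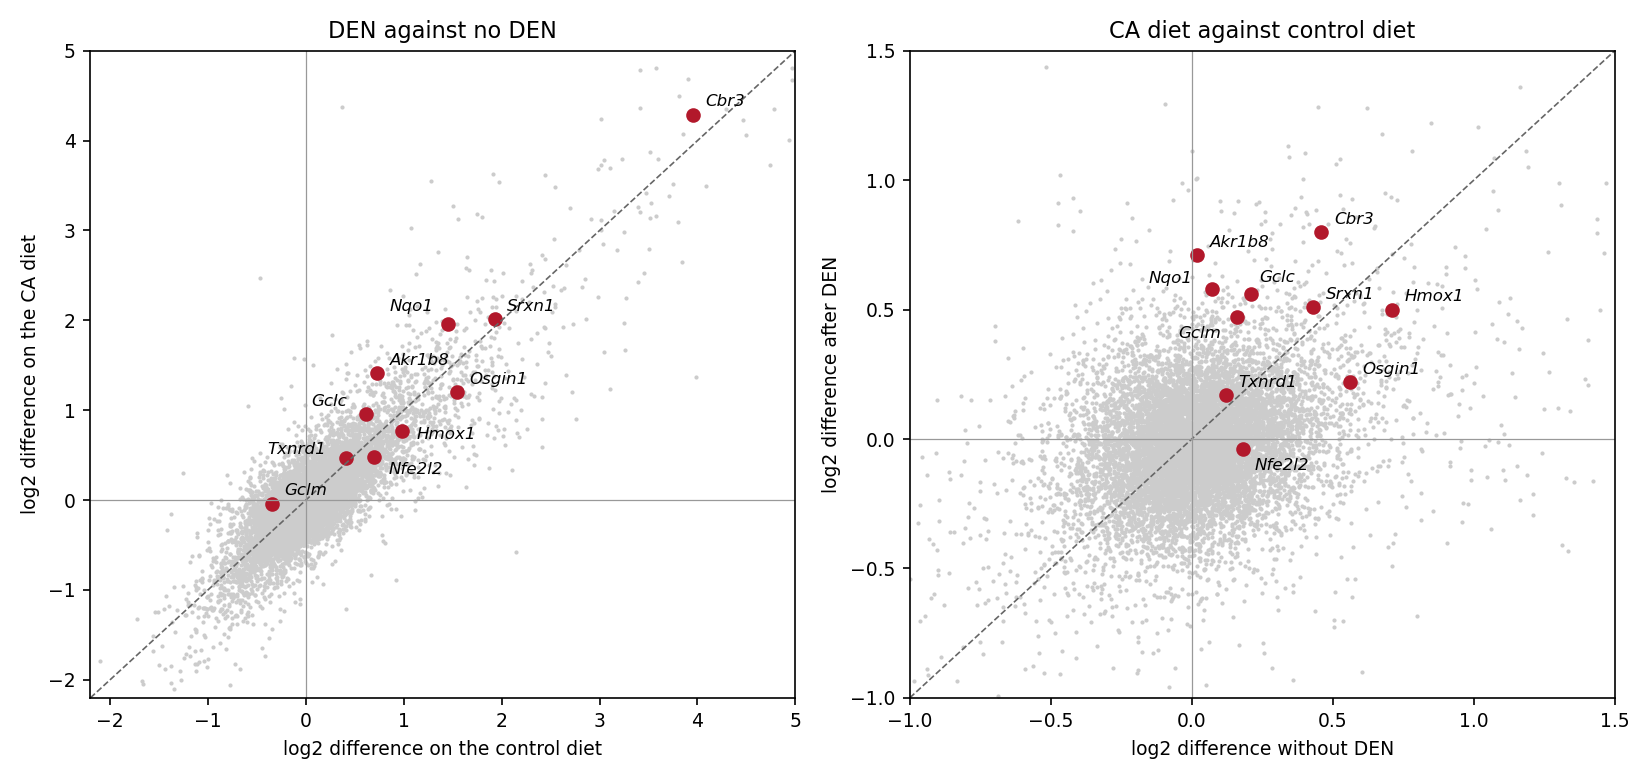
Each panel sets 2 comparisons that share no array against each other, as log2 differences: DEN against no DEN on the CA diet (vertical) and on control diet (horizontal) at left, the CA diet against control diet after DEN (vertical) and without DEN (horizontal) at right. Red points are the 10 genes, grey points all expressed genes within the axes, and the dashed line marks equal differences. In the right panel Akr1b8, Nqo1, Gclc, Cbr3, Gclm, Srxn1 and Txnrd1 lie above the line, and Hmox1, Nfe2l2 and Osgin1 below it.

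The difference between these effects was small for most genes. The DEN effect on the CA diet minus that on control diet was 0.68 for Akr1b8, 0.51 for Nqo1, 0.35 for Gclc, 0.34 for Cbr3, 0.31 for Gclm, 0.08 for Srxn1 and 0.06 for Txnrd1 on the log2 scale. It was -0.21 for Hmox1, -0.22 for Nfe2l2 and -0.34 for Osgin1. In all 7 of 10 were above 0, against 42.1% of expressed genes. The central 95% of expressed genes ran between -0.64 and 0.57, and of the 10 genes Akr1b8 was outside it. With 4 arrays this difference has no estimate of error.

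Among genes that control NRF2, the small MAF gene Maff had the largest difference with both treatments and the repressor gene Bach2, just under 2-fold, the next. Of 10 expressed regulators of the 11 listed, 1 was at least 2-fold higher with both treatments than with neither, against 5.97% of expressed genes. None was lower by that much, against 2.2%, and the median of the regulators was 0.12. Keap1 stood at 0.11, the ligase genes Cul3 and Rbx1 at -0.09 and 0.04, the small MAF genes Mafg, Mafk and Maff at -0.02, 0.57 and 1.46, the repressor genes Bach1 and Bach2 at 0.13 and 0.96, the KEAP1-binding adaptor gene Sqstm1 at 0.44 and the relative Nfe2l1 at -0.41. Maff had 7.59 in the DEN with CA pool, 7.43 in the DEN with control diet pool and 7.28 in the CA pool, against 6.13 in the control diet pool. The control diet pool was the low one, and the CA diet and DEN went with differences of similar size (1.15 and 1.30).

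Further genes of the same network were counted in the same way. Over 7 lists of regulators and other genes that NRF2 controls or that work beside them, 44 of 54 listed genes were measured and expressed. Of these 44, 7 were at least 2-fold higher after DEN on control diet and none was lower by that much, with a median of 0.02, against 5.12% higher and 0.901% lower among all expressed genes. After DEN on the CA diet 5 were higher and none lower, with a median of 0.13, against 4.75% and 1.75%. The CA diet without DEN gave 3 higher and 1 lower, against 0.661% and 0.592%, and the CA diet after DEN none in either direction, against 0.266% and 0.472%. With both treatments 8 were higher and 2 lower, with a median of 0.09, against 5.97% and 2.2%.

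Conjugation and carbonyl reduction held the widest differences among these lists. With both treatments 4 of 11 genes were at least 2-fold higher, against 5.97% of expressed genes, and the median of the list was 0.48. Gstm3, a glutathione transferase, had 12.09 in the DEN with CA pool and 11.63 in the DEN with control diet pool, against 10.73 in the CA pool and 9.40 in the control diet pool. Gstm1, its close relative, differed by 1.01 on the CA diet alone and by 1.09 after DEN on control diet, and the array may not tell these apart. Gsta4, which clears lipid aldehydes, stood at 1.07 with both treatments. Cbr1, the neighbour of Cbr3 in function, had 10.75 in the DEN with CA pool and 10.20 in the DEN with control diet pool, against 9.42 in the CA pool and 9.15 in the control diet pool. It had the same order of pools as Cbr3 with a smaller span.

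Other branches had single genes that differed. Of all expressed genes 5.97% were at least 2-fold higher with both treatments, and 2.2% were lower by that much. In export, 1 of 3 genes was at least 2-fold higher with both treatments: Abcc4, an exporter of organic anions, with 7.69 in the DEN with CA pool and 7.56 in the DEN with control diet pool, against 5.45 in the CA pool and 5.62 in the control diet pool. In haem and iron handling it was 1 of 5, Slc48a1, a haem transporter, with 9.17 in the DEN with CA pool and 8.94 in the DEN with control diet pool, against 7.28 in the CA pool and 7.32 in the control diet pool. Among 5 NADPH genes Pgd, of the pentose phosphate pathway, stood at 1.30 after DEN on control diet in the probe set used and between 1.04 and 1.26 in the 3 others. Me1, malic enzyme, was lower on the CA diet without DEN (-1.03) and with both treatments (-1.10). Its other probe set read -0.83 and -1.20 there. After DEN on control diet Me1 stood at -0.90, and at -0.77 in its other probe set. Among 7 genes of glutathione synthesis and use only Glrx, glutaredoxin, was 2-fold different with both treatments, at -1.25 (-0.86 in its other probe set). None of 3 thioredoxin genes was (median -0.28), nor any of 6 antioxidant enzymes and metallothioneins outside the NRF2 core (median -0.36).

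**Figure D4:**
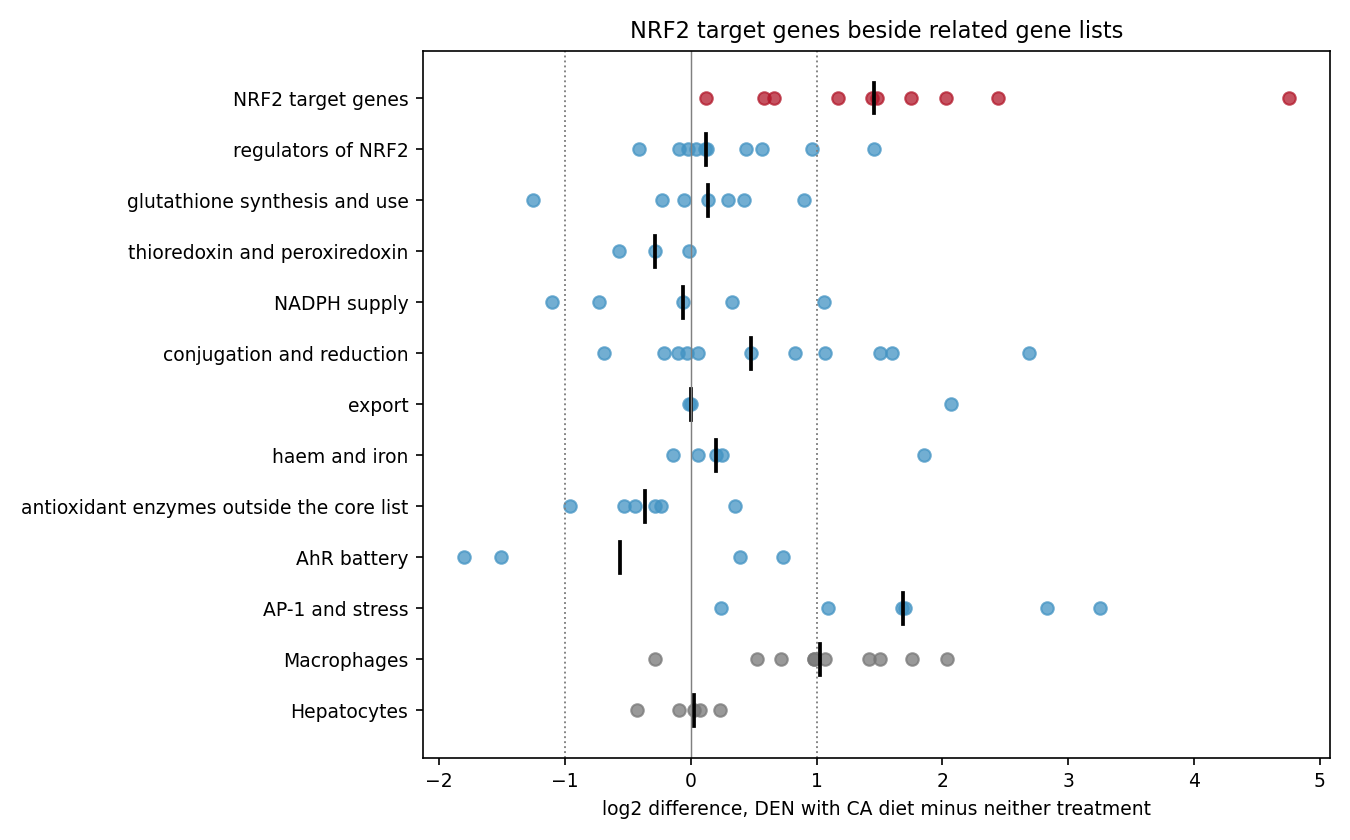
Log2 differences of DEN with CA diet minus neither treatment (horizontal axis) for expressed genes of each list (rows, 1 point a gene). Black bars are medians and dotted lines mark 2-fold. The 10 NRF2 genes (red) have a median of 1.46, the AP-1 list 1.69, macrophage markers (grey) 1.02 and hepatocyte markers (grey) 0.03.

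Other regulators of some of the same genes were looked at beside them. Nqo1 is also controlled by the dioxin receptor AhR. Of the 4 expressed genes of that battery none was at least 2-fold higher with both treatments, against 5.97% of expressed genes. By that much 2 were lower, against 2.2%, Ahr at -1.80 (-0.71 in its other, dimmer probe set) and the cytochrome gene Cyp1a2 at -1.51. Cyp1a1 and Tiparp differed the other way, at 0.73 and 0.39. Cyp1a1 stood close to the expression limit on every array (4.88 to 5.68). AP-1 factors bind TGANTCA, which Srxn1 and Osgin1 carry. Of 6 expressed AP-1 and stress genes 5 were at least 2-fold higher with both treatments, against 5.97% of expressed genes. Fosl2 was 1 of these, at 1.09, but stood at -0.30 in its other, dimmer probe set. Jun, also 1 of these, stood at 2.83 and at 2.03 in its other probe set. The median of the list was 1.69. Jun, an AP-1 subunit gene, had 8.83 in the DEN with CA pool and 8.0 in the DEN with control diet pool, against 7.70 in the CA pool and 6.0 in the control diet pool, the order of the 8 NRF2 genes. Fos, another AP-1 subunit gene, had 8.44 in the DEN with CA pool and 7.34 in the DEN with control diet pool, against 9.02 in the CA pool and 5.19 in the control diet pool, and did not follow it. The part of either in the NRF2 genes was not tested.

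The summed macrophage markers had the same order of pools as the 8 genes, but most single markers did not. Mpeg1, Cd68 and Csf1r had it. Adgre1, Marco, Cd5l, Clec4f, Vsig4, Timd4 and Cd163 were higher in the CA pool than in the DEN with control diet pool. Kupffer cells, the macrophages of the liver, are known to express Hmox1. Of 10 markers 5 were at least 2-fold higher with both treatments than with neither, against 5.97% of expressed genes. None was lower by that much, against 2.2%, and all 10 markers were expressed. The log2 of their summed level was 13.03 in the DEN with CA pool and 12.59 in the DEN with control diet pool, against 12.34 in the CA pool and 11.73 in the control diet pool. After DEN on control diet the median of the 10 markers was 0.57, and they stood at 1.89 for Mpeg1, 1.35 for Cd68, 0.67 for Cd5l, 0.66 for Adgre1, 0.63 for Csf1r, 0.51 for Marco, 0.16 for Vsig4, 0.00 for Clec4f and Timd4, and -0.67 for Cd163. In bulk livers a change in the number of cells of a type and a change in RNA per cell cannot be told apart, and the part of macrophages in the Hmox1 values was not tested.

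The pools were liver by their markers, and DEN pools carried RNA of the oncofetal genes Afp and Gpc3. The 5 measured hepatocyte markers summed to a log2 level of 16.5 in every pool, with none 2-fold different in any comparison. The sum rests mostly on the bright Alb, Ttr and Apoa1, which stood at 0.08, 0.01 and 0.18 after DEN on the CA diet. Cps1 and Hnf4a stood at -0.48 each there. Afp and Gpc3, genes of fetal liver and liver tumours, had 12.17 and 9.73 in the DEN with CA pool and 12.65 and 9.80 in the DEN with control diet pool, against 4.10 and 4.41 in the CA pool and 4.77 and 4.14 in the control diet pool. Igf2, also listed as an oncofetal gene, stood at only 0.44 after DEN on control diet and 0.24 after DEN on the CA diet. How far the NRF2 genes came from tumour tissue was not tested. With both treatments against neither, 5.97% of expressed genes were at least 2-fold higher. Among markers it was 1 of 2 expressed cholangiocyte markers, 2 of 7 stellate cell and fibroblast markers and 1 of 4 endothelial markers. It was also 2 of 3 neutrophil markers, and none of the 1 erythroid and 1 T and NK cell marker that were expressed. The 3 other T and NK cell markers had mean levels under the expression limit. With both treatments Gzma stood at 1.17, Nkg7 at 0.93 and Cd3g at 0.51, against -0.20 for the expressed Cd3e. Gzma (4.97 and 4.87) and Nkg7 (5.16 and 5.21) were above the limit in the DEN with CA and DEN with control diet pools. Krt19 and Krt7, defining cholangiocyte keratins, were not above 4.94 on any array.

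The genes with the pattern most like that of Cbr3, the member with the largest span (4.75 on the log2 scale), were found by the distance between the 4 mean-centred levels. The nearest 5 of the expressed genes were Ocstamp (distance 0.18), Inhbb (0.31), Psat1 (0.44), Lepr (0.50) and Tlr1 (0.53). Ocstamp, a membrane protein of cell fusion in osteoclasts, had 9.19 in the DEN with CA pool and 8.28 in the DEN with control diet pool, against 4.70 in the CA pool and 4.47 in the control diet pool. Inhbb, a subunit of activin, had 10.05 in the DEN with CA pool and 8.92 in the DEN with control diet pool, against 5.36 in the CA pool and 5.02 in the control diet pool. Its second probe set varied only between 6.35 and 6.70. The likeness rests on 4 pools and on genes close to or under the expression limit without DEN.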

How the data were processed

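The authors' deposited values were log2 expression values per probe set of an Affymetrix mouse array, made by RMA with the Partek software, version 6.5, per the submitters' processing notes. The RMA options are not stated in the labels. RNA was labelled with a biotin dendrimer kit, per the labels' protocols. RMA draws the distributions of arrays together, so a change of most genes one way would be removed (array medians 4.843 to 4.865). Depth does not apply, no detection call was used, and differences of dim probe sets are compressed.

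From these values, Python 3.11.15 with pandas 2.3.3 and NumPy 2.4.6 gave differences between arrays, with no test, since each group has 1 array. Of 35890 annotated probe sets 34958 had 1 gene symbol, 932 several, and 9211 others were unnamed here; 34754 matched RefSeq (GRCm38.p6) by gene identifier, with 0 symbols changed. A gene counted as different from 2-fold on, over 11651 expressed genes. The calling step was run on simulated arrays with planted changes and an assumed noise. This does not show how often 2-fold calls arise between real pools. The genes, the companion and marker lists and the rule for named genes (all 10 genes, list genes that were expressed and 2-fold different, and the 5 genes most like the member of largest range) were chosen with earlier results of these data known. Alternatives were another scaling, another probe set rule, a floor on low values, a 1.5-fold limit and no expression filter.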

Additional observations from a re-analysis of the deposited data

Results flagged for a closer look

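Nfe2l2 differed in direction between the settings of the diet comparison. The CA diet minus control diet difference was -0.04 after DEN and 0.18 without DEN on the log2 scale, and whether these differ was not tested, since each rests on 1 array a group. Both values are smaller than the largest difference of the hybridization controls in the same comparisons (0.267 after DEN and 0.305 without DEN).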

How the results depend on the processing

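No paired analysis was possible because each group has 1 array. Over 150 checks of counts and medians, 139 stayed close to the value given. Close meant a ratio of at most 1.5 for a count. For a median it meant a shift smaller than the largest hybridization control difference. No median changed sign, and a count cannot. At a 1.5-fold limit the numbers of the 10 genes that were higher were 1 on the CA diet without DEN, 8 after DEN on control diet and 2 on the CA diet after DEN. At that limit 11 network genes were higher after DEN on control diet and 1 was higher on the CA diet after DEN, while 2 were lower after DEN on either diet and 4 with both treatments. With the mean over probe sets 0 network genes were lower on the CA diet without DEN, and with centred arrays 1 was lower after DEN on control diet. The mean of the 10 genes after DEN on control diet was 1.194. Centring shifted the median of expressed genes by -0.163 after DEN on control diet and by -0.12 with both treatments, and 4 and 7 of the 10 genes were still at least 2-fold higher. The order of pools held for 9 genes with quantile normalization (Nfe2l2 joined, at 0.01 for the CA diet after DEN), for 8 with centred arrays (Nfe2l2 in, Akr1b8 out, at -0.01 for the CA diet without DEN) and for 7 with the mean over probe sets, where Txnrd1 stood at -0.07 after DEN on control diet. Taken alone, 3 of the 8 other probe sets showed it. In the mean over probe sets Srxn1 stood under 2-fold after DEN on control diet, at 0.98, and 3 genes were then called. Single gene values moved by more than the hybridization controls in 30 of 288 checks. The causes were not tested.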

Other observations

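Slc7a11, the cystine importer that feeds glutathione synthesis and a gene that NRF2 controls, was under the expression limit by its brighter probe set, with 4.72 in the DEN with CA pool and 4.60 in the DEN with control diet pool, against 4.34 in the CA pool and 3.48 in the control diet pool. Its other probe set read 5.94 in the DEN with CA pool and 5.24 in the DEN with control diet pool, against 2.11 in the CA pool and 2.83 in the control diet pool, so that both DEN pools and neither of the others were above the limit. Slc7a11 was chosen after its values were seen.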
